A study of Mus musculus with 12 samples.

Results

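The 10 genes described here, all of inflammatory signalling, were the chemokines Ccl2, Ccl7, Cxcl1, Cxcl5, Cxcl12 and Cx3cl1, the cytokines Csf1 and Il6, the prostaglandin synthase gene Ptgs2, and Nfkbia, which encodes an NF-kB inhibitor. They were chosen by gene name, and all 10 were among the 16414 genes of the count table. The 12 RNA libraries came from 3T3-L1 cells, a single mouse fibroblast line that turns into lipid-filled adipocytes on hormonal induction. A synthetic microRNA was introduced into all of them at 20 nM for 48 h, and it was either a miR-335-5p mimic or a scrambled non-targeting control (NT mimic). All were then induced for 3 days with insulin (200 nM), 3-isobutyl-1-methylxanthine (0.5 mM), rosiglitazone and dexamethasone (250 nM), a synthetic glucocorticoid. Each mimic was sequenced in 3 libraries at day 3, labelled preadipocyte, and 3 at day 6, labelled adipocyte, whose cells had a further 2 days with insulin alone and 1 day without added hormone. The medium and the day change together between these time points and cannot be told apart. Whether the replicates were grown or transfected separately is not given in the sources used here. The p-values therefore cover only the spread among these libraries, and that spread may be technical.

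Chemokines are small secreted or membrane-held proteins that guide leukocytes along a gradient. In adipose tissue, preadipocytes and adipocytes release several of them, and Ccl2 in particular is known for drawing monocytes into expanding fat. Many of these genes are switched on by NF-kB, a family of transcription factors held in the cytoplasm by inhibitors such as the product of Nfkbia. Nfkbia is itself an NF-kB target, which closes a negative feedback loop, and it is also known as a gene that glucocorticoids induce. Many cytokine mRNAs carry AU-rich elements in the 3′ UTR, where proteins such as that of Zfp36 bind and speed up decay.

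The mature microRNA that the mimic stands for is shown because its seed, bases 2 to 8 in capitals, defines the 7-base matches searched in the member genes. It is encoded at chr6:30741314-30741336 on the plus strand in the RefSeq annotation of GRCm38.p6.
mmu-miR-335-5p: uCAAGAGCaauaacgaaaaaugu
The matches GCTCTTG (bases 2 to 8) and CTCTTGA (bases 2 to 7 followed by A) were each found 0 times in the longest annotated 3′ UTR of all 10 genes. These UTRs were 275 to 5188 bases long. Across 21022 genes, 11.96% had the first match and 11.88% the second.

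The promoter windows below are shown because they hold the NF-kB consensus, in capitals, in a member gene. The consensus was searched on both strands of the 250 bases before the RefSeq gene start, in GRCm38.p6. It was present in 4 of the 7 members with a promoter sequence, Csf1, Cxcl1, Il6 and Nfkbia, and in 3.90% of all 32851 promoters of that table. In Cxcl1 the capitals cover overlapping matches on both strands.
Csf1 (chr3:107760599-107760638, minus strand): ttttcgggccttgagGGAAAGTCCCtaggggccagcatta
Cxcl1 (chr5:90891159-90891199, plus strand): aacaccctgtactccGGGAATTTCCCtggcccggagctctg
Il6 (chr5:30013055-30013094, plus strand): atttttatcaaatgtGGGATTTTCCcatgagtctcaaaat
Nfkbia (chr12:55492652-55492691, minus strand): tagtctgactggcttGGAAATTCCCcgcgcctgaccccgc
The match began 154 bases before the gene start in Csf1, 71 in Cxcl1, 44 in Il6 and 29 in Nfkbia. Cx3cl1, Cxcl12 and Ptgs2 had 0 matches in this window. Of the genes with a match, Csf1 and Cxcl1 were higher and Nfkbia lower in all 6 libraries of day 6 than in those of day 3. Il6 overlapped between the days. Of those without a match, Ptgs2 was higher in all 6 libraries of day 6, and Cx3cl1 and Cxcl12 overlapped. Among all genes tested, 24.0% were higher and 22.9% lower in this way. Whether a match bears on the change was not tested.

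The AU-rich pentamer ATTTA was found at least 1 time in the longest 3′ UTR of all 10 members, and in 65.2% of 21022 genes. The members differed in number, from 1 in Ccl2 and Cx3cl1 to 10 in Il6 and 14 in Ptgs2. Their UTRs were 275, 1871, 1668 and 2445 bases long in that order. Neither the counts nor the shares of all genes were corrected for UTR length. The longer element TTATTTATT, which 7.66% of genes carry, was present in Cxcl1 (2 matches), Cx3cl1, Ptgs2 and Nfkbia (1 match each). The 30-base stretches with the most pentamers, in capitals, are shown for the pair with 4 matches within 30 bases.
Cxcl1 (UTR bases 79 to 108, chromosome 5): gagggtcctATTTATTTAtgtATTTATTTA
Ptgs2 (UTR bases 12 to 41, chromosome 1): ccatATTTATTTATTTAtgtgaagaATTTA

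Total counts were 17.69 to 18.94 in units of 1e+06 per library, so a level of 1 CPM (counts per 1e+06 after TMM scaling between libraries) rests on about 18 counts. Of the 10 adipocyte markers, 9 were tested, and their summed level was 6610 to 8650 CPM at day 3 and 7100 to 10500 CPM at day 6. Under each mimic Adipoq, Cfd and Slc2a4 rose and Cidec fell, and the other 5 did not pass the test. With the NT mimic Adipoq went from 116 to 1676 CPM and Cidec from 3369 to 998 CPM. The fibroblast and preadipocyte list summed to 3450 to 5030 CPM at day 3 and 12500 to 19200 CPM at day 6, so those markers were higher in the libraries labelled adipocyte. Of 12 macrophage and leukocyte markers, Itgam, Fcgr1, Cd163 and C1qa were at 0 in all libraries, and Ptprc and Adgre1 had 1 count each in total. The sum of that list was nonetheless 0.48 to 2.33 CPM at day 3 and 4.38 to 12.7 CPM at day 6, mostly from Cd68 and Cd14. The endothelial list summed to 0.0559 to 0.469 CPM at day 3 and 0.8 to 1.72 CPM at day 6, with Kdr at 0. The epithelial list (4 of 5 genes in the table) summed to 1.75 to 8.75 CPM at day 3 and 19.3 to 55.2 CPM at day 6 through keratins, with Cdh1 at 1 count in total. The part of these sums in the changes below was not tested.

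Per kilobase of the longest transcript, the members spanned more than 3 orders of magnitude. Cxcl12 was the highest, with group means of 120 to 135 CPM per kb. Nfkbia followed with 103 and 104 CPM per kb at day 3 and 23.7 and 24.3 at day 6. Cx3cl1 (6.72 to 8.29 CPM per kb) and Csf1 (2.81 to 13.4) were intermediate, and Csf1 stood below Cx3cl1 at day 3 and above it at day 6. Ccl7 (1.18 to 4.06), Ccl2 (0.238 to 2.52) and Cxcl1 (0.431 to 2.03) came next. Cxcl5 (0.0884 to 0.73), Ptgs2 (0.1 to 0.468) and Il6 (0.0086 to 0.0943) were the lowest. From Ccl7 down to Ptgs2 the ranges of the group means of neighbours in this order overlapped. The highest group mean of Il6, 0.0943, lay just above the lowest of Cxcl5 and below all those of Ptgs2.

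**Figure D1:**
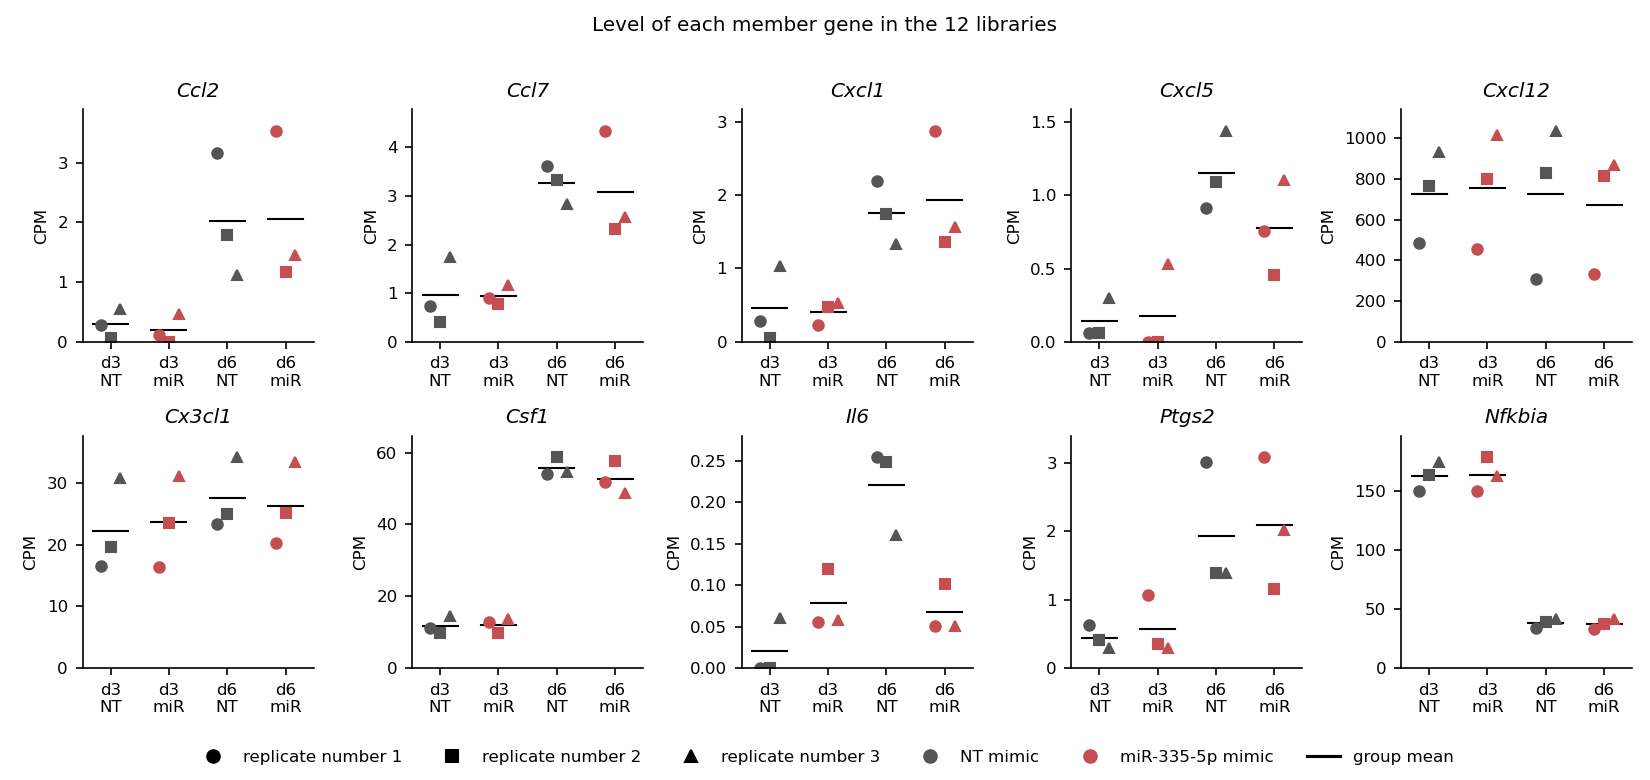
Level of each of the 10 member genes in CPM (linear axes from 0, 1 panel per gene) in the 12 libraries, by day (d3, d6) and mimic, with marker shape for the replicate number and a bar for the mean of 3 libraries. Csf1 lies at 9.69 to 14.4 CPM at day 3 and 48.8 to 58.8 at day 6, Nfkbia falls from 150 to 179 CPM to 33.1 to 41.9, and Cxcl12 is lowest in the libraries numbered 1 in each group.

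The comparison of day 6 with day 3 asks how the members change as the cells differentiate. In this bulk RNA, fewer cells that express a gene and less RNA per cell cannot be told apart. With groups alone in the edgeR quasi-likelihood fit and a call at an adjusted p below 0.01, 4 of the 9 members tested were called under the NT mimic. Ccl7, Csf1 and Ptgs2 rose and Nfkbia fell, while 18.8% of the 11703 genes tested rose and 16.7% fell. Under the miR-335-5p mimic, Ccl2, Ccl7 and Csf1 rose and Nfkbia fell, against 18.2% and 16.5% of all genes. Since libraries that share a replicate number also resemble each other, the fit was repeated with that number as a block. In it 8 members were called under the NT mimic, all but Nfkbia upwards, and 6 under the miR-335-5p mimic. The background then was 27.5% higher and 24.3% lower under the NT mimic, and 27.0% and 24.7% under the other. Ccl2, Cxcl1, Cxcl5 and Ptgs2 passed the filter on low counts through the day 6 libraries and would not have passed it in those of day 3 alone, so a count of members that passed is not a measure of how the 10 genes behave.

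Without any test, the 6 libraries of day 6 were all above the 6 of day 3 for Ccl2, Ccl7, Cxcl1, Csf1 and Ptgs2, as for 24.0% of all genes tested. They were all below for Nfkbia, as for 22.9% of genes. Cxcl5, Cxcl12, Cx3cl1 and Il6 overlapped between the days. Only Csf1 and Nfkbia were called under both mimics whichever of the 12 libraries was left out.

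Csf1, the growth and survival factor of macrophages, was higher in all libraries of day 6. At day 3 it was at 11.1, 9.69 and 14.4 CPM in NT mimic libraries 1, 2 and 3, and at 12.8, 9.90 and 13.7 CPM in miR-335-5p mimic libraries 1, 2 and 3. At day 6 it reached 53.9, 58.8 and 54.5 CPM with the NT mimic and 51.9, 57.6 and 48.8 CPM with the miR-335-5p mimic. The lowest day 6 library was thus far above the highest of day 3. The log2 change was 2.25 (SE 0.155, edgeR adjusted p = 8.447e-07) under the NT mimic, a 4.75-fold rise, and 2.12 (SE 0.154, edgeR adjusted p = 1.336e-06) under the miR-335-5p mimic. Its receptor gene Csf1r had 1 count in each day 3 group, 19 counts with the NT mimic at day 6 and 5 with the miR-335-5p mimic at day 6.

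Nfkbia, whose product retains NF-kB in the cytoplasm, moved the opposite way. It was at 150, 163 and 175 CPM in the day 3 NT mimic libraries and 150, 179 and 163 CPM in those of the miR-335-5p mimic. At day 6 the values were 33.8, 39.4 and 41.9 CPM with the NT mimic and 33.1, 37.5 and 41.5 CPM with the miR-335-5p mimic. The days did not overlap, and within each mimic and number the log2 difference (prior count 2) ran from -2.25 to -1.97. The fitted log2 change was -2.08 (SE 0.115, edgeR adjusted p = 1.623e-07) and -2.13 (SE 0.115, edgeR adjusted p = 1.481e-07) under the NT and miR-335-5p mimics. Leaving out any library moved it only between -2.218 and -2.002.

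**Figure D2:**
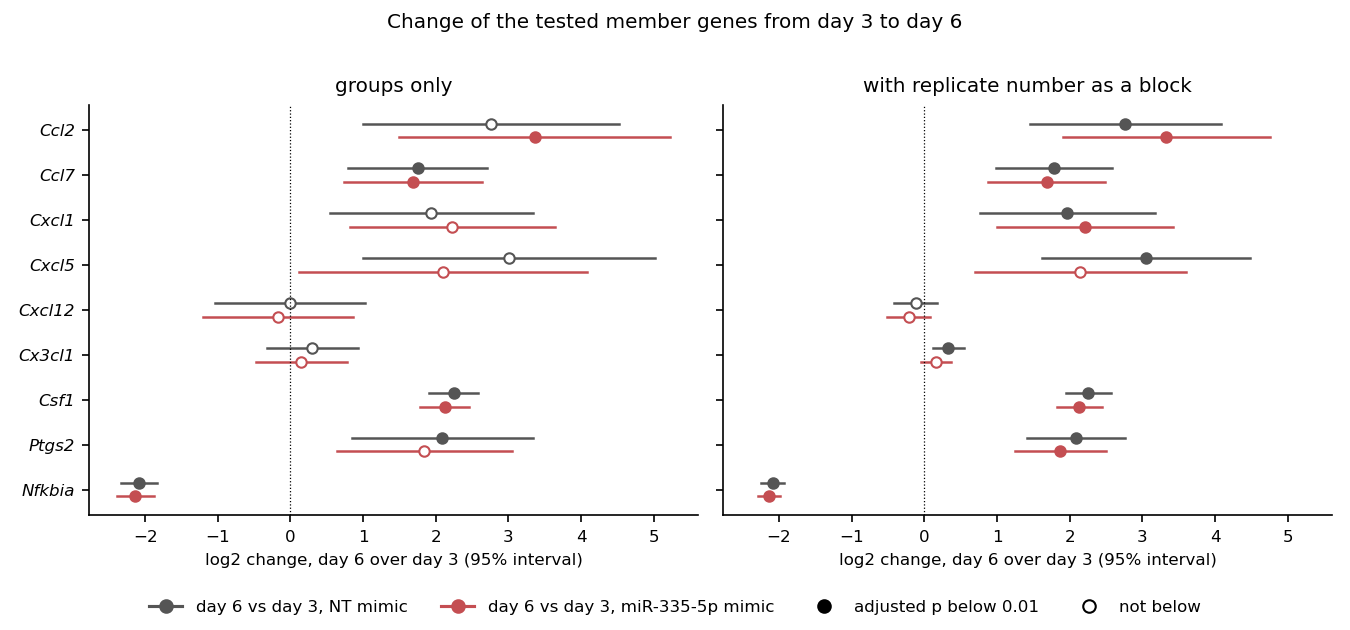
Log2 change from day 3 to day 6 of the 9 tested members (points) with 95% intervals (lines) under each mimic, with groups alone (left) and with the replicate number as a block (right), filled where the edgeR adjusted p is below 0.01. Csf1 (2.25 and 2.12) and Nfkbia (-2.08 and -2.13) have the narrowest intervals on the left, and 4 members per mimic are filled there against 8 (NT) and 6 (miR-335-5p) on the right.

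The CC chemokine genes Ccl2 and Ccl7 lie next to each other on chromosome 11, and both products attract monocytes through the receptor Ccr2. Ccl2 was close to the detection limit at day 3, at 0.284, 0.0587 and 0.544 CPM with the NT mimic and 0.112, 0 and 0.469 CPM with the miR-335-5p mimic. At day 6 it was at 3.15, 1.79 and 1.121 CPM with the NT mimic and 3.54, 1.16 and 1.46 CPM with the miR-335-5p mimic. All day 6 libraries were above all day 3 libraries, and those numbered 1 were the highest. Group sums were 15 and 10 counts at day 3 and 119 and 122 at day 6. The log2 change under the NT mimic was 2.76 (SE 0.805) and missed the call (edgeR adjusted p = 0.014), but passed it with the block (adjusted p = 0.001646). That block call was lost without replicate number 1 or 2 (edgeR adjusted p = 0.02533 and 0.02362), an alternative chosen after seeing the data. Under the miR-335-5p mimic it was 3.36 (SE 0.854, edgeR adjusted p = 0.006742). That call was lost in 6 of the 12 fits that left out a library, which were those without day 3 miR-335-5p replicates 1 or 2, day 3 NT replicate 1, day 6 miR-335-5p replicates 1 or 3, or day 6 NT replicate 2, and the log2 change ranged from 2.71 to 5.00 over the 12. With the block it was lost without number 1 (edgeR adjusted p = 0.02522).

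Ccl7 was about 3-fold higher at day 6 under both mimics. It was at 0.739, 0.411 and 1.75 CPM at day 3 and 3.61, 3.33 and 2.83 CPM at day 6 with the NT mimic. The libraries of the miR-335-5p mimic held 0.895, 0.780 and 1.17 CPM at day 3 and 4.35, 2.32 and 2.57 CPM at day 6. The days did not overlap for this gene either. The log2 change was 1.75 (SE 0.435, edgeR adjusted p = 0.005805) under the NT mimic and 1.69 (SE 0.435, edgeR adjusted p = 0.007269) under the miR-335-5p mimic. The NT call was lost without day 3 NT replicates 1 or 2 or any of the 3 day 6 NT libraries. The other was lost without any of the 6 miR-335-5p libraries or day 6 NT replicates 2 or 3. Over all fits without 1 library the log2 change stayed between 1.36 and 2.47. With the block (adjusted p = 0.00109 and 0.001686) the NT call was lost without number 2 (0.03191), and the miR-335-5p call without number 1 or 2 (0.0185 and 0.0134). The receptor gene Ccr2 had 0 counts in all 12 libraries, which allows up to 0.158 to 0.17 CPM in each (3 counts per library).

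Cxcl1 and Cxcl5 encode ligands of Cxcr2 that attract neutrophils, and both genes lie on chromosome 5. Cxcl1 was at 0.284, 0.0587 and 1.03 CPM at day 3 and 2.19, 1.74 and 1.33 CPM at day 6 with the NT mimic. With the miR-335-5p mimic it was at 0.224, 0.480 and 0.528 CPM at day 3 and 2.88, 1.36 and 1.56 CPM at day 6. The gap between the highest day 3 library and the lowest day 6 library was small, and both were numbered 3 and carried the NT mimic. The log2 change was 1.94 (SE 0.639, edgeR adjusted p = 0.02492) and 2.22 (SE 0.645, edgeR adjusted p = 0.0136), so neither was called without the block. With the block the adjusted p values were 0.008034 and 0.004054. Both calls were lost without number 1 or 2, with edgeR adjusted p of 0.04739 and 0.08771 under the NT mimic and 0.05009 and 0.01374 under the other.

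Cxcl5 rested on even fewer counts, 7 and 9 per group at day 3 and 67 and 46 at day 6. Its levels at day 3 were 0.0568, 0.0587 and 0.302 CPM with the NT mimic and 0, 0 and 0.528 CPM with the miR-335-5p mimic. At day 6 they were 0.916, 1.09 and 1.44 CPM with the NT mimic and 0.758, 0.454 and 1.11 CPM with the miR-335-5p mimic. Replicate 3 was the highest in each group, and a day 3 library of the miR-335-5p mimic lay above a day 6 library of the same mimic. The log2 change was 3.00 (SE 0.919, edgeR adjusted p = 0.01749, block 0.001465) under the NT mimic, and the block call was lost without number 2 (0.01848). Under the miR-335-5p mimic it was 2.10 (SE 0.907, edgeR adjusted p = 0.07267, block 0.01388), and it was called with the block only without number 3 (0.004697). Cxcr2, their receptor, had 54 and 52 counts per group at day 3 and 10 and 6 at day 6. Without the block it did not pass the test (edgeR adjusted p = 0.04194 and 0.02258). With the block it was among the 7 tested receptor genes of the list below that were called lower under each mimic. Cxcr2 was at most 0.356 CPM in any library of day 6 and passed the filter on low counts through those of day 3. That call is therefore not a measure of how the gene behaves. Its level also differed by replicate number (log2 difference of -1.98 for 2 over 1).

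Cxcl12, which retains haematopoietic cells and guides their homing through Cxcr4, was the most abundant member and did not pass the test between days. At day 3 it was at 484, 768 and 935 CPM with the NT mimic and 458, 799 and 1015 CPM with the miR-335-5p mimic. At day 6 it was at 310, 831 and 1039 CPM with the NT mimic and 335.4, 815.7 and 869.9 CPM with the miR-335-5p mimic. The days overlapped, and the log2 change was -0.005 (95% interval -1.04 to 1.03) under the NT mimic and -0.17 (-1.20 to 0.86) under the miR-335-5p mimic. With the block the intervals narrowed to -0.42 to 0.17 and -0.51 to 0.08. Within numbers, the level was lower at day 6 in 3 of 6 pairs, among them both pairs numbered 1. Cxcr4 had 0 counts in all 12 libraries. Ackr3, the second receptor of Cxcl12, which takes up and degrades the ligand, rose from 3.28 ± 1.27 to 14.4 ± 3.24 CPM (SD, n = 3, edgeR adjusted p = 0.0002834) under the NT mimic.

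Cx3cl1 encodes fractalkine, a membrane-held chemokine that can be shed. It was at 16.5, 19.6 and 30.8 CPM at day 3 and 23.4, 24.9 and 34.2 CPM at day 6 with the NT mimic. With the miR-335-5p mimic it was at 16.4, 23.5 and 31.1 CPM at day 3 and 20.3, 25.2 and 33.3 CPM at day 6. The days overlapped, but each library of day 6 was above the day 3 library of its own mimic and number. The log2 change of 0.30 under the NT mimic missed the call without the block (edgeR adjusted p = 0.4023) and passed it with the block (0.33, 95% interval 0.12 to 0.54, adjusted p = 0.009932). Under the miR-335-5p mimic it was 0.15 (edgeR adjusted p = 0.6907, block 0.1566). The block call was lost when any of the 3 replicate numbers was left out, with adjusted p of 0.03264 to 0.06767, an alternative chosen after seeing the data. Its receptor gene Cx3cr1 had at most 2 counts in a group.

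Ptgs2 encodes the inducible cyclooxygenase, which makes the precursor of prostaglandins. It was at 0.625, 0.411 and 0.302 CPM at day 3 and 3.00, 1.39 and 1.39 CPM at day 6 with the NT mimic. With the miR-335-5p mimic it was at 1.06, 0.360 and 0.293 CPM at day 3 and 3.08, 1.16 and 2.01 CPM at day 6. The days did not overlap, and the library numbered 1 was the highest in every group. The log2 change was 2.09 (SE 0.57, edgeR adjusted p = 0.009723, block 8.955e-05) under the NT mimic and 1.84 (SE 0.55, edgeR adjusted p = 0.01565, block 0.0001278) under the miR-335-5p mimic. The NT call without the block stood close to the threshold. It was lost in 9 of the 12 fits without 1 library, and remained only without day 3 miR-335-5p replicate 1 or day 6 miR-335-5p replicates 1 or 2. With the block it was called under both mimics without any of the 3 numbers.

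Il6, a cytokine that adipose tissue releases in inflammation, was nearly undetected and did not enter the main test. Its counts were 0, 0 and 1 at day 3 and 5, 5 and 3 at day 6 with the NT mimic. With the miR-335-5p mimic they were 1, 2 and 1 at day 3 and again 1, 2 and 1 at day 6. The 3 day 6 NT libraries were thus the highest of the 12. The NT group sums of 13 at day 6 and 1 at day 3 gave a ratio of 12.8 per total count, with an exact 95% counting interval of 1.93 to 545. In a fit with no filter on low counts, the log2 change under the NT mimic was 3.11 (95% interval 1.13 to 5.08, edgeR adjusted p = 0.01609) and missed the call. The log2 difference between mimics at day 6 was -1.62 (-3.19 to -0.06, edgeR adjusted p = 1), from 4 and 13 counts. Both intervals lay on 1 side of 0, and neither difference passed the test across all genes.

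The libraries differed by replicate number as well as by day. An F test on that number, with the group in the fit, called 2184 genes, or 18.7% of those tested, and 3 of the 9 members. The adjusted p-values given next are of that test over all 3 numbers together. The log2 difference between any pair of numbers was not tested singly. For Cxcl12, libraries numbered 1 held 310 to 484 CPM and those numbered 2 and 3 held 768 to 1039 CPM, with no overlap in any group. The log2 difference was 1.04 for number 2 over 1 and 1.29 for 3 over 1 (edgeR adjusted p = 3.95e-05). For Cx3cl1 number 1 was the lowest and number 3 the highest in 4 of 4 groups, with a log2 difference of 0.77 for 3 over 1 (edgeR adjusted p = 0.000132). Ptgs2 went the other way, with number 1 the highest in 4 of 4 groups and a log2 difference of -1.22 for 2 over 1 (edgeR adjusted p = 0.00368). Its call was lost without day 6 NT replicate 1 or without day 6 miR-335-5p replicates 1 or 2.

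Nfkbia was also lowest in number 1 in 4 of 4 groups, at an adjusted p of 0.0186 by edgeR. Ccl2, Ccl7, Cxcl1, Cxcl5 and Csf1 did not pass (edgeR adjusted p 0.109 to 0.718). Within the day 3 libraries alone, 5 members were tested (Ccl7, Cxcl12, Cx3cl1, Csf1 and Nfkbia). Of these Cxcl12, Cx3cl1 and Csf1 were called, beside 30.1% of the genes tested there. Within the day 6 libraries alone, Cxcl12, Cx3cl1, Ptgs2 and Ccl2 were called of 9 members, beside 34.5% of genes. Of the 5 members tested on both days, Cxcl12 and Cx3cl1 were called on both, and the share of all genes called on both was not counted. Ptgs2 and Ccl2 had too few counts to be tested at day 3 and could not be called there. Marker sums also differed by number, not all in the same order. The fibroblast list summed to 12800, 15100 and 19200 CPM in the day 6 NT libraries numbered 1, 2 and 3. In those of day 3 it summed to 3740, 3450 and 4860 CPM. Its member Pdgfra was at 202, 549 and 642 CPM at day 6. Pdgfra and Col3a1 were higher in number 2 than in 1 (log2 1.05 and 0.49), while its other tested members were lower (-0.52 to -0.04). The adipocyte list summed to 9690, 7380 and 7100 CPM in the day 6 NT libraries. The epithelial and macrophage lists were also highest in number 1 there. The part of these sums and genes in the differences was not tested. What a replicate number stands for is not given in the labels.

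**Figure D3:**
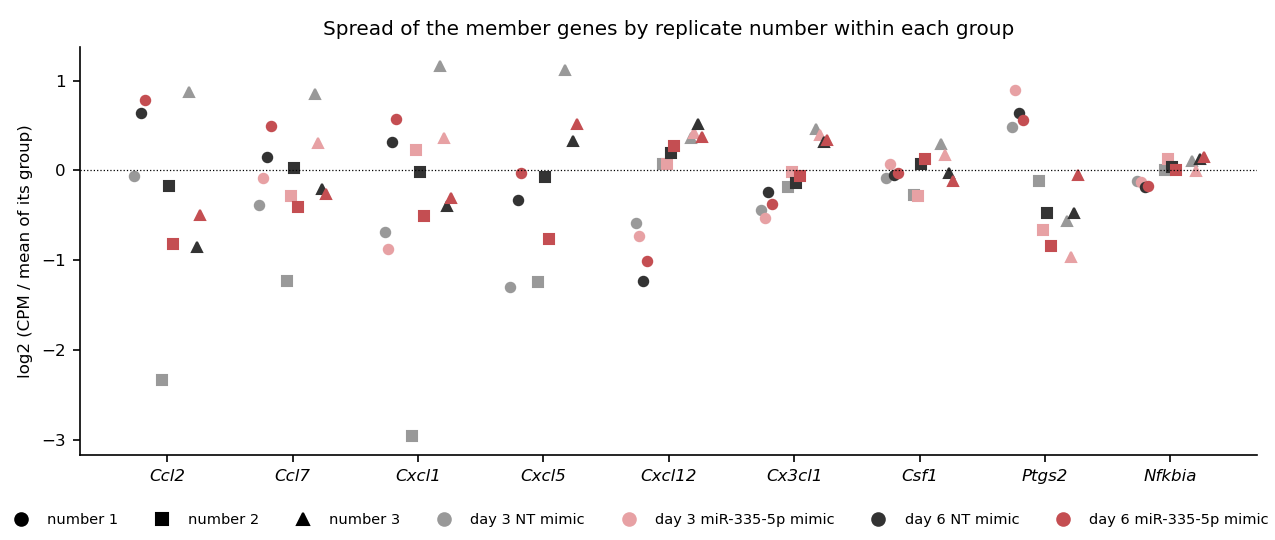
Log2 ratio of each library's CPM to the mean of its group for the 9 tested members, by replicate number (shape) and group (colour); groups with a library at 0 CPM (day 3 miR-335-5p mimic for Ccl2 and Cxcl5) are left out. Number 1 lies below the others in all 4 groups for Cxcl12, Cx3cl1 and Nfkbia and above them for Ptgs2.

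After subtracting the mean of each day, the gene most like Cxcl12 over the 12 libraries was Pdgfra, a receptor that marks preadipocytes, with a Pearson r of 0.991. The closest to Cx3cl1 was Arsa (r = 0.978), to Nfkbia Pcdhb15 (0.984), to Ptgs2 Mms22l (0.967), to Ccl2 Ifitm3 (0.95), to Cxcl5 Adh7 (0.947) and to Csf1 Piwil2 (0.921). Ccl7 and Cxcl1 were each other's closest gene among all tested (r = 0.925). Among the members, Cxcl12 ran with Nfkbia (r = 0.897) and Cx3cl1 (0.793) and against Ptgs2 (-0.884). These values describe 12 libraries that share the replicate numbers and the low counts named above, and each closest gene is the highest r among all genes tested.

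The comparison of mimics asks whether added miR-335-5p changes the members. Without a block, none of the 11703 genes was called at day 3, at day 6, for the mean of both days or for the difference between the days, so the share called was 0% in each, and 0% for the mean with the block too. At an unadjusted p below 0.05 there were 59, 21, 77 and 29 genes, and DESeq2, also without a block, called 0 in each. These fits leave the differences by replicate number in the spread between libraries. The common dispersion, a measure of that spread, was 0.0278 without a block and 0.00262 with the block within day. The small counts without a block are therefore no evidence that the mimic has no effect. With the number as a block within each day, 4 genes were called at day 3 (0.0342%), 0 at day 6 (0%), 2 for the mean (0.0171%) and 0 for the difference (0%), and 853, 593, 1052 and 361 genes had an unadjusted p below 0.05. None of those called was a member or in a list, and all were lower with the miR-335-5p mimic. They were named after their values were seen. Cyp2f2, a cytochrome P450 gene (log2 -0.88, edgeR adjusted p = 0.001479 at day 3), and Angpt4, an angiopoietin gene (-0.54, adjusted p = 0.009436), were called at day 3 and for the mean. Acvrl1, a receptor gene of the TGF-beta family (-0.46, adjusted p = 0.009436), and 1 gene without a symbol here were called at day 3 only. Among the members at day 3, the log2 difference ran from -0.58 for Ccl2 (95% interval -2.85 to 1.68) to 0.36 for Ptgs2 (-1.01 to 1.73). At day 6 it ran from -0.57 for Cxcl5 (-2.13 to 1.00) to 0.14 for Cxcl1 (-1.08 to 1.36). The interval included 0 for all 9 members at each day and for the mean, without a block and with either block.

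The size of a difference that these data leave possible varied with the level of the gene. Nfkbia had the narrowest interval for the mean of both days, at a log2 difference of -0.01 (-0.18 to 0.16, block -0.12 to 0.09). Csf1 was at -0.02 (-0.25 to 0.22), and Cx3cl1 at 0.01 (-0.43 to 0.46, block -0.14 to 0.16). Cxcl12 had a wide interval of -0.76 to 0.70 that narrowed to -0.23 to 0.19 with the block. The low genes had wide intervals. For Ccl2 it was -1.61 to 1.05, with the block -1.45 to 0.84, and with the block within day -0.98 to 0.37. For Cxcl5 it was -1.74 to 1.51, -1.42 to 1.12 and -1.09 to 0.80 in the same order of fits. Leaving out day 3 miR-335-5p replicate 3 moved the lowest member difference at day 3 to -4.43, and leaving out day 3 NT replicate 3 moved the highest to 1.49, with no call.

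**Figure D4:**
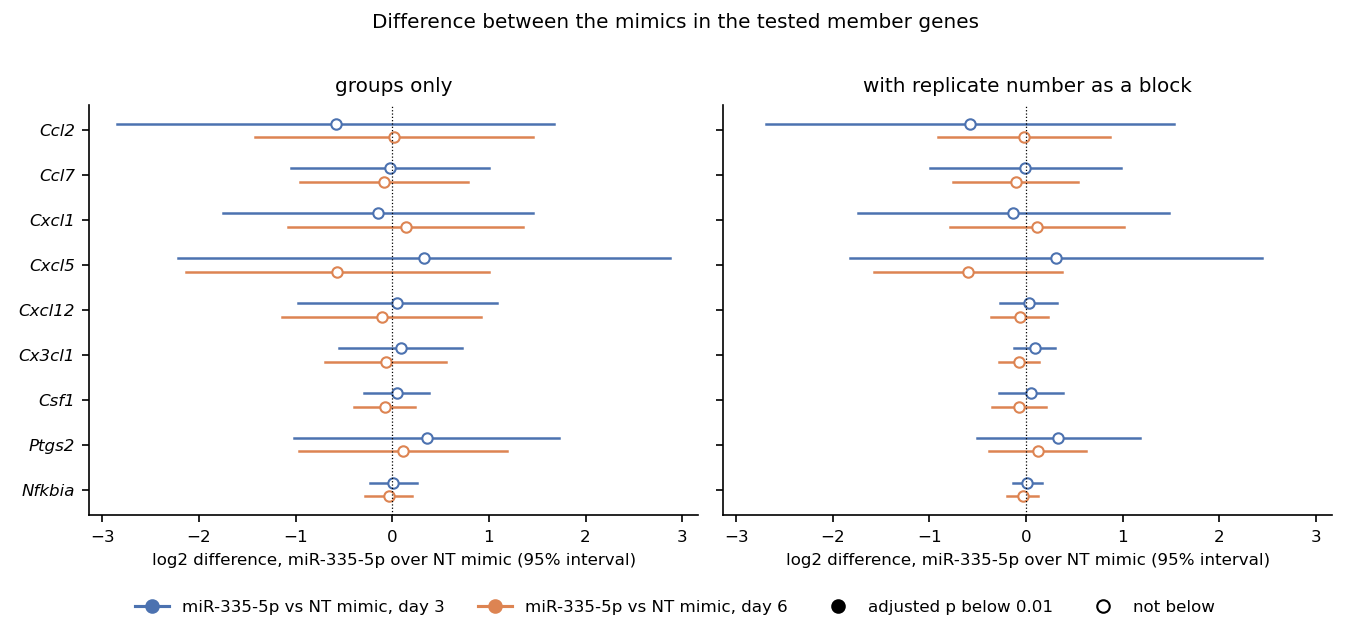
Log2 difference between the miR-335-5p and the NT mimic for the 9 tested members (points) with 95% intervals (lines) at day 3 and day 6, with groups alone (left) and with the replicate number as a block (right). No point is filled, and all intervals include 0, from the narrow ones of Nfkbia to that of Ccl2 at day 3, -2.85 to 1.68.

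The other genes of these pathways were read from lists that are counted here without a set test, to be read against the 18.8% of all genes tested that rose and the 16.7% that fell under the NT mimic (27.5% and 24.3% with the block). Of 21 other chemokines, 5 were tested, and 1 rose and 1 fell from day 3 to day 6 under each mimic (1 and 2 under the miR-335-5p mimic with the block). Cxcl13, which attracts B cells, fell from 158 ± 63.8 to 11.6 ± 5.15 CPM (SD, n = 3, NT mimic, edgeR adjusted p = 5.796e-05), and with the miR-335-5p mimic from 132 ± 56.8 to 9.08 ± 3.36 CPM. Ccl9, a monocyte chemokine of rodents, rose from 2.44 ± 2.08 to 17.9 ± 11.7 CPM (SD, n = 3, NT mimic, edgeR adjusted p = 0.009276). That call was lost without day 3 NT replicates 2 or 3, day 6 NT replicates 1 or 2, day 3 miR-335-5p replicate 2 or day 6 miR-335-5p replicates 2 or 3 (edgeR adjusted p 0.01026 to 0.04017), and with no filter on low counts (0.0208). The count under the miR-335-5p mimic dropped from 2 to 1 without day 3 replicates 2 or 3 or day 6 replicates 1 or 2 of that mimic, or with no filter. Of 23 other cytokines, 8 were tested and 4 rose under each mimic (5 with the block). The number fell to 2 under the NT mimic without day 3 NT replicates 1 or 2 or day 6 NT replicate 3, and to 2 under the miR-335-5p mimic without day 3 replicates 2 or 3 or day 6 replicate 3 of that mimic. Tnfsf12 (TWEAK) rose from 3.34 to 15.7 CPM (edgeR adjusted p = 4.077e-06) and Il15 from 3 to 56 counts per group (edgeR adjusted p = 0.001792) under the NT mimic. With the block, the Il15 call was lost without replicate number 2 (edgeR adjusted p = 0.01021) or 3 (0.01429). The median log2 change under the NT mimic was -0.36 for the other chemokines and 1.27 for the other cytokines, beside 0.03 for all genes tested. Il15 (3 and 0 counts per group at day 3) and Il18 (4 and 6) passed the filter on low counts through the day 6 libraries. The count and median of the cytokines are therefore not a measure of how these genes behave.

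Of 24 receptors, 17 were tested, and 6 rose and 4 fell under each mimic, with a median log2 change of 0.14 under the NT mimic. With the block, 7 rose and 7 fell under each mimic. Cxcr2, among those that fell with the block, entered the test through the day 3 libraries. Both receptors of tumour necrosis factor fell under the NT mimic. Tnfrsf1b went from 212 ± 20.0 to 21.7 ± 7.43 CPM (SD, n = 3, log2 -3.28, edgeR adjusted p = 1.027e-06) and Tnfrsf1a from 610 ± 17.67 to 348 ± 3.56 CPM (log2 -0.81, adjusted p = 4.028e-06). All 20 genes of NF-kB signalling were tested. Of these, 7 rose and 2 fell under the NT mimic and 5 rose and 1 fell under the miR-335-5p mimic, with medians of 0.18 and 0.07. With the block, 8 rose and 2 fell under the miR-335-5p mimic, and without day 3 NT replicate 2 the NT count dropped from 9 to 5. The adaptor gene Myd88 rose from 26.6 to 54.7 CPM (log2 1.04, edgeR adjusted p = 1.959e-06) and the subunit gene Relb from 3.65 to 12.7 CPM (log2 1.79, adjusted p = 1.487e-05) under the NT mimic.

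Among 18 tested inhibitors and feedback genes, 3 rose and 2 fell under each mimic, with a median log2 change of 0.27 under the NT mimic. With the block, 6 rose and 2 fell under the NT mimic and 6 rose and 3 fell under the miR-335-5p mimic. Nfkbia itself is not in this list. Zfp36, whose product binds AU-rich elements, fell from 71.7 ± 10.0 to 14.1 ± 2.31 CPM (SD, n = 3, log2 -2.35, edgeR adjusted p = 4.066e-07), a size like that of Nfkbia. Tnip1, a partner of the deubiquitinase A20, rose from 94.6 to 158 CPM (log2 0.74, edgeR adjusted p = 1.856e-05). Of 10 tested prostaglandin genes, 3 rose and 1 fell under each mimic. With the block, 4 rose and 1 fell under the NT mimic. Ptger4 and Ptgir, with few counts at day 3, entered this test through the day 6 libraries. The prostacyclin synthase gene Ptgis rose from 44.3 ± 11.1 to 172 ± 51.1 CPM (SD, n = 3, edgeR adjusted p = 0.0003582). Ptges2, 1 of the prostaglandin E synthase genes in the list, fell from 127 ± 8.98 to 72.4 ± 7.50 CPM (edgeR adjusted p = 0.0003084). The others did not share that fall under the NT mimic, with Ptges at 220 ± 46.7 and 219 ± 23.3 CPM and Ptges3 at 128 ± 9.54 and 115 ± 7.22 CPM.

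The 11 glucocorticoid response genes, which include Dusp1 from the feedback list, are listed because dexamethasone was in the medium only up to day 3, and all were tested. Under the NT mimic 5 fell and 1 rose, and under the miR-335-5p mimic 6 fell and 1 rose, with median log2 changes of -1.09 and -1.13. With the block, 7 fell and 1 rose under each mimic. Means under the NT mimic were higher at day 6 for the receptor gene Nr3c1 (188 ± 15.5 to 290 ± 50.8 CPM). The same held for Sgk1 (51.6 ± 4.05 to 70.5 ± 25.8 CPM) and Anxa1 (150 ± 19.8 to 178 ± 41.2 CPM). Fkbp5, a cochaperone of the glucocorticoid receptor, fell from 2116 ± 231 to 184 ± 14.8 CPM (SD, n = 3, log2 -3.53, edgeR adjusted p = 2.142e-08). Errfi1, an inhibitor of the epidermal growth factor receptor, fell from 281 ± 12.9 to 88.0 ± 3.08 CPM (log2 -1.67, edgeR adjusted p = 5.503e-07). Nfkbia also fell, and the medium and the day cannot be told apart in its change. No gene of these lists was called between the mimics, without a block or with either block.

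**Figure D5:**
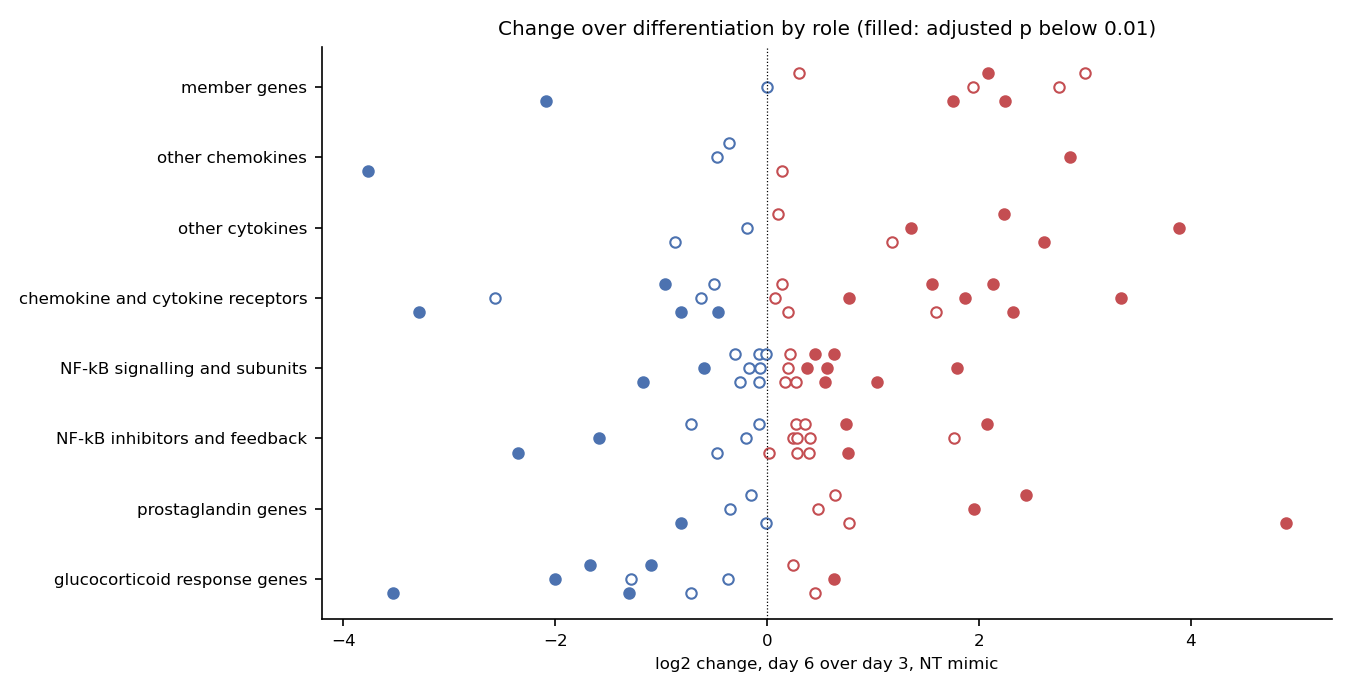
Log2 change from day 3 to day 6 under the NT mimic for each tested gene of the 10 members and of the 7 pathway lists (1 point per gene, spread vertically for legibility), filled where the edgeR adjusted p is below 0.01, red for higher and blue for lower. Most lists hold both directions, while 5 of the 6 called glucocorticoid response genes lie below 0.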

How the data were processed

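The authors deposited a gene table of expected counts for 12 libraries, 4 groups of 3. The submitters' notes list HISAT2 2.2.1, RSEM 1.3.1 and mm39. Annotation and strand setting: not given in the sources used here, which leaves overlapping and antisense genes uncertain. A share of 3.37% of the values was not whole (tolerance 1e-06), and all were rounded. Of 16414 identifiers, 16393 matched a GRCm38.p6 symbol.

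Counts were tested with edgeR 4.0.16 (R 4.3.3; filterByExpr by group, TMM, robust quasi-likelihood F test, two-sided, Benjamini-Hochberg over all 11703 genes, call below 0.01) in 1 fit of all libraries. Intervals are at 95%. Standard errors were derived from each test as the absolute log2 change over the square root of F, and the intervals from these. They are approximate, most of all for small changes in genes with few counts. Alternatives were DESeq2 1.42.0 (the study's tool), RLE scaling, no filter, replicate blocks and leaving out each library. The test between mimics was checked on simulated data, with mimic differences planted in genes with many counts only. The check did not assess day or replicate calls, nor the members with few counts. The members, lists and named genes (2 called genes of lowest adjusted p per list) were chosen with earlier results of these data known. Receptors of the members were named after their values were seen.

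The replicate numbers pair the samples: the correlation of residuals for a shared number was 0.485 to 0.825 on the same day and 0.253 to 0.541 on different days, against -0.688 to 0.312 for different numbers and groups. Blocked values therefore stand beside the member calls and the pathway list counts that they change. Symbols, promoters and the microRNA came from RefSeq and 3′ UTRs from GENCODE M21, both GRCm38; a match is a description, not a site.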

Additional observations from a re-analysis of the deposited data

How the results depend on the processing

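Neither RLE scaling nor dropping the filter changed which members were called. With DESeq2, Ccl2 was added under the NT mimic (5 members called), Cxcl1 and Ptgs2 under the miR-335-5p mimic (6), and Nfkbia for the replicate number (4), while 38% of 12877, 37.5% of 12877 and 23% of 12277 genes with an adjusted p were called. With the replicate block, 8 members were called under the NT mimic and 6 under the miR-335-5p mimic, of 6068 and 6042 genes in all. Within the block fit, leaving out a replicate number (chosen after seeing the data) gave 5, 3 and 7 members under the NT mimic without numbers 1, 2 and 3, and 3, 4 and 7 under the miR-335-5p mimic, and the genes called were 6249, 3850 and 3940 (NT) and 6309, 3703 and 3785 (miR-335-5p). Without 1 library, 2 to 5 members were called under each mimic, and 1365 to 2015 genes by replicate number. That number called 3334 genes in the day 3 libraries alone and 3994 in those of day 6. Cxcl12 changed direction without being called: its log2 change ran from -0.35 to 0.36 (NT) and -0.44 to 0.15 (miR-335-5p) without 1 library, with 0.03, 0.19 and 0.36, and 0.09 and 0.15, above 0, and it was 0.11 under the NT mimic with the block and without number 1. Cx3cl1 under the miR-335-5p mimic ran from -0.069 to 0.39, with -0.069 and -0.06 below 0. With the replicate block within each day, 4 genes were called between the mimics at day 3 and 2 for the mean, with 0 members among them.

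Depth limits Ccl2, Cxcl1, Cxcl5, Ptgs2 and Il6, which have few counts at day 3, so that 1 library can decide a call. No value here separates time from medium.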
